A study of Mus musculus with 10 samples.

Results

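The potassium channel genes were examined in cultured mouse muscle stem cells (MuSCs). They were taken as every autosomal protein-coding gene whose symbol begins with Kcn, and 72 such genes were listed with at least 1 peak, out of 14195 autosomal protein-coding genes listed for either antibody. Of these, 70 were listed for histone H4 monomethylated at lysine 20 (H4K20me1), 20 for RNA polymerase II carrying phosphate on serine 2 of its tail (Pol II S2P), and 18 for both. Only Kcnrg and Kcnk7 were listed for Pol II S2P alone. The cells were profiled by CUT&RUN: an antibody tethers a nuclease to its target so that the DNA beside it is released and sequenced. Control cells (Ctrl) had the genotype Pax7CreERT/Suv4-20h1WT and knockout cells (sKO) the genotype Pax7CreERT/Suv4-20h1KO, Suv4-20h1 being another name of the methyltransferase gene Kmt5b. Both genotypes carry a tamoxifen-activated Cre recombinase driven by the satellite cell gene Pax7, on a C57BL/6 background, and the mice were adults given tamoxifen. The MuSCs were enriched on magnetic columns and then grown in culture, and each genotype has 2 libraries per antibody, described as biological replicates.

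Potassium channels let K+ leave the cell and thereby set the resting voltage. Pore-forming subunits assemble into the channel. They comprise voltage-gated (Kv), inwardly rectifying (Kir), leak (K2P) and calcium- or sodium-activated (KCa) families, and auxiliary subunits change where and how the pores open. In muscle precursors, Kcnh1 and then Kcnj2 currents make the voltage more negative before the cells fuse, and the calcium-activated channel of Kcnn4 is known from dividing cells. KMT5B adds further methyl groups to H4K20me1, the mark left by another enzyme, KMT5A. Pol II S2P marks the elongating polymerase, so that its coverage inside a gene follows transcription.

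The deposited score is the authors' spike-in normalised coverage of a peak, and here scores were summed per gene. The sum of all scores for H4K20me1 was 15218720 and 20432644 in Ctrl versus 32194136 and 35046570 in sKO, and 3257665, 4243685, 4885638 and 3435908 for Pol II S2P in the same order. The spike-in counts behind this scale were not analysed here, so H4K20me1 changes are given on the deposited scale and, for the members named and for the families, also after scaling the libraries to equal totals. In bulk cells a higher mark in each cell and a mark in more cells cannot be told apart. For Pol II S2P, 7 of 10 satellite cell markers were listed, with summed scores of 5603 to 6317 in Ctrl and 4482 to 6691 in sKO, and Myf5, Cdh15 and Cxcr4 had no peak. Of markers of other cells, 2 of 6 endothelial (Pecam1 and Tek, 133 to 256) and 2 of 6 immune genes (Cd68 and Csf1r, 874 to 1368) were listed. Most of the immune score was at Cd68, and part of it lay outside the gene. The Ctrl median of the 2 immune genes was 234 score per kb of gene, and 123 when weighted by the share of the peak in the gene. Also listed were 1 of 6 fibro-adipogenic (Dpt, 50 to 82) and 4 of 8 glial or neuronal genes (8880 to 14058). The latter were Sox10, Syt1, Rbfox3 and Ncam1, with most of the score at Ncam1, which muscle precursors also express. The other genes of these lists, Ptprc, Cdh5 and Pdgfra among them, had no peak. The part of other cells in the results was not tested.

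Sequences upstream of 5 genes that recur in the results are shown first: the members with the largest H4K20me1 change (Kcnn4, Kcnmb3, Kcnj8), Kcnrg, which had Pol II S2P but no H4K20me1 peak, and Kcnq1ot1, the antisense transcript inside Kcnq1. Each window runs from 250 bases before to 50 after a RefSeq transcription start (build GRCm38.p6), 5′ to 3′ on the strand of the gene, with CG dinucleotides in capitals.
Kcnn4, chr7:24370013-24370312, plus strand: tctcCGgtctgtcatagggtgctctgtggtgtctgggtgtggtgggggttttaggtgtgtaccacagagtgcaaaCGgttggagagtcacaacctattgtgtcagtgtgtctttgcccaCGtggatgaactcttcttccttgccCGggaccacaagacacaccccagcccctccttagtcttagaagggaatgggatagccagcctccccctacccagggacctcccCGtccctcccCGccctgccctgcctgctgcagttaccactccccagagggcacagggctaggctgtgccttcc
Kcnmb3, chr3:32491920-32492219, minus strand: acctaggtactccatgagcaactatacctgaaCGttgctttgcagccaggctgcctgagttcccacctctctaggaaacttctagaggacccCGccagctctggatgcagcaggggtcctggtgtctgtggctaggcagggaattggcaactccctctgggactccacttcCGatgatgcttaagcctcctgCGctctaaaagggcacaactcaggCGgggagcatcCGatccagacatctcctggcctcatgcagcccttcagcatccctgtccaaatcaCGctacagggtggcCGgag
Kcnj8, chr6:142571565-142571864, minus strand: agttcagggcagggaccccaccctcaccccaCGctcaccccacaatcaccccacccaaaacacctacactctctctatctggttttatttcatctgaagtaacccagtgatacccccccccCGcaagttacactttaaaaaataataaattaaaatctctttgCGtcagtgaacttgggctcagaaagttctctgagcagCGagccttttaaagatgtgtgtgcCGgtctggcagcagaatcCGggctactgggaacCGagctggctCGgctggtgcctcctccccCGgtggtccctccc
Kcnrg, chr14:61607207-61607506, plus strand: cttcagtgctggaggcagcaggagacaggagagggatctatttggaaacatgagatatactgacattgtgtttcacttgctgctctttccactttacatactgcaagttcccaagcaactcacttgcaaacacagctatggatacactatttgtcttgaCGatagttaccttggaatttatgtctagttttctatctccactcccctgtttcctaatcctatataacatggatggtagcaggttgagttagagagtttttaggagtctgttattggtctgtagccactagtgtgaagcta
Kcnq1ot1, chr7:143296498-143296797, minus strand: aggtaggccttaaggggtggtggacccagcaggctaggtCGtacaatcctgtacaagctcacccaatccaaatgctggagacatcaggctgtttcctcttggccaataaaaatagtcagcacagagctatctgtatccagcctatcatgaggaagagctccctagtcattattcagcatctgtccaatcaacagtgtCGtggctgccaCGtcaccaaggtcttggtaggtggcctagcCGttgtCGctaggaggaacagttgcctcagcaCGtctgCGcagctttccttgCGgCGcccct

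These windows hold 6, 8, 9, 1 and 9 CG dinucleotides. RefSeq windows were matched for 53 of the 72 members, with 1 window per gene at its first listed start. Their median was 10 CG dinucleotides, with an observed to expected ratio of 0.45, against 19 and 0.72 in 10778 protein-coding genes, although the median GC content was 60.3% in both. Other starts of a gene can differ in either direction, as at Kcnk2 (6 at the first, 33 at another) and Kcnab2 (25 at the first, 3 at another). The E-box letters CANNTG, searched on both strands as the core bound by myogenic bHLH factors, were found in 36 of the 53 windows (67.9%) and in 64.5% of the windows of all coding genes. An H4K20me1 peak lay over 39 of the member windows (73.6%, all coding genes 55.2%) and a Pol II S2P peak over 4 (7.55%, all coding genes 46.1%). At Kcnn4 that peak was listed with no gene and scored 56 and 59 in Ctrl versus 64 and 46 in sKO, so the groups overlapped.

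Among genes listed for either antibody, potassium channel genes were listed more often for H4K20me1 and less often for Pol II S2P than coding genes as a whole. These shares are tied, since a gene without a Pol II S2P peak had to have an H4K20me1 peak to be counted. Genes with no peak at all, such as Kcna7 and Kcne4, are left out of them. Of the genes so counted, 97.2% of the members and 81.5% of all coding genes had an H4K20me1 peak, whereas 27.8% and 67.9% had a Pol II S2P peak. The 222 H4K20me1 peaks of the members had a median length of 8.5 kb (10.4 kb over all coding genes). Of these, 157 lay wholly inside the gene, 118 covered no exon, and 49 genes had their start covered. The median Ctrl level was 15.7 score per kb of gene (21.0 over all coding genes) and the median sKO level was 39.0 (45.2).

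The highest Ctrl levels belonged to short Shaker genes lying inside long H4K20me1 peaks. Kcna5, a voltage-gated pore of muscle, had 624 score per kb of gene, followed by Kcna3, a channel of lymphocytes and proliferating cells, with 249 and Kcna2, a channel of axons, with 239. These levels per kb of gene count score that lies outside the gene: only 4.56% of the 62.8 kb peak of Kcna5 was inside it. The lowest levels were found in long neuronal genes, at 0.295 for Kcnip4, 0.302 for Kcnh7 and 0.389 for Kcnh5. Per kb of peak the spread was small, with Kcna5 at 28.4 and Kcnip4 at 24.96.

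H4K20me1 rose in sKO MuSCs at 68 of the 70 tested potassium channel genes, and fell at none (limma across 13750 genes, adjusted p under 0.1 and a change over 0.5 on the log2(score + 1) scale). The same call was made for 92.3% of all tested genes, and for 0.0% in the lower direction, so that the members shared a rise seen across the genome. At an unadjusted p under 0.05, 67 members were higher (90.3% of all genes) and 0 lower. The median log2 change was 1.0 for the members and 1.11 for all genes (quartiles 0.83 and 1.42). In 69 members each sKO library exceeded each Ctrl library (96.5% of all genes), the exception being Kcnip4, and the reverse order was seen in 0 members (0.0364% of all genes). Of the 222 single peaks, 201 were higher in both sKO libraries (94.9% of all peaks), 0 were lower in both (0.0313%) and 21 overlapped. Without sKO replicate 1 the median log2 change was 1.07 for the members and 1.17 for all genes. Without sKO replicate 2 it was 0.90 and 1.05. On equal totals 18 members were called higher (24.1% of all genes) and 2 lower (4.31%). At an unadjusted p under 0.05 on this scale the counts were 28 higher (44.2% of all genes) and 13 lower (16.8%). With the libraries brought to the same distribution by quantile normalisation, 5 were higher (10.3% of all genes) and 4 lower (11.2%).

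The families did not all sit at the same place within this rise. The KCa pores had a median log2 change of 1.32 (0.58 to 2.89, 7 of 7 higher) and the Kir genes of 1.28 (0.72 to 2.31, 11 of 11 higher). The Kv pores had a median of 0.99 (0.59 to 2.03, 25 of 25), the silent Kv modifiers, which form no channel alone, 0.93 (7 of 7), and the auxiliary subunits 0.96 (8 of 9). The leak channels were lowest with 0.81 (10 of 11). On equal totals the medians were 0.39 for the KCa pores (2 higher), 0.35 for the Kir genes (5 higher), 0.06 for the Kv pores (5 higher) and 0.0054 for the silent modifiers (2 higher). They were 0.03 for the auxiliary subunits (2 higher, 1 lower) and -0.12 for the leak channels (2 higher, 1 lower). Over all genes tested, 92.3% were called higher on the deposited scale, and 24.1% higher and 4.31% lower on equal totals.

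**Figure D1:**
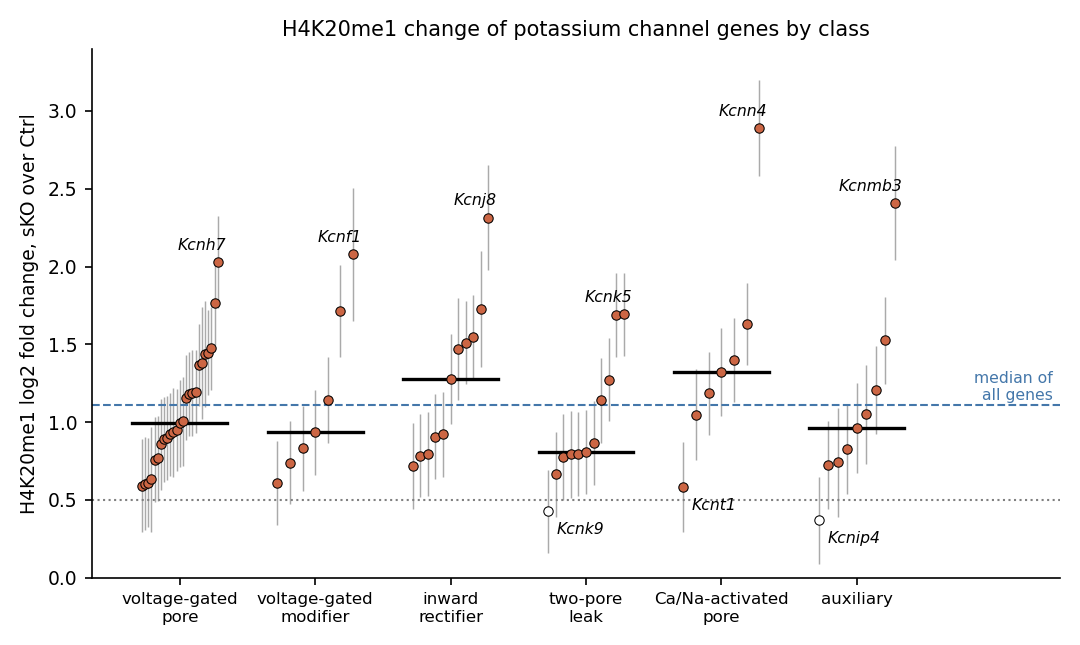
Change of H4K20me1 (log2 of sKO over Ctrl, vertical axis) for each of 70 potassium channel genes by family, with SE bars from limma, filled points for called genes, open points for genes not called, a black bar at each family's median, a dashed line at the median of all genes (1.11) and a dotted line at the 0.5 limit. Only Kcnk9 and Kcnip4 lie below the dotted line, and Kcnn4 stands highest at 2.89.

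To set the families against the genome-wide rise, the median change of all tested genes was subtracted in each library. All 70 members together stood at -0.03 and 0.03 in Ctrl and at -0.15 and -0.10 in sKO, a difference of -0.12 (log2, pooled SD 0.038). The leak channels fell further behind, at -0.28 and -0.26 in sKO against -0.06 and 0.06 in Ctrl, whereas the KCa pores were ahead, at 0.19 and 0.24 against -0.04 and 0.04. The groups did not overlap in any of these comparisons, but with 2 libraries against 2 the exact two-sided permutation p was 0.33, the smallest it can reach. The Kir genes were also ahead on this scale (a difference of 0.17), but the value was 0.00 without Ctrl replicate 2 and -0.02 after quantile normalisation. The leak channels stayed behind (-0.19) and the KCa pores ahead (0.36) after quantile normalisation. For the members together the difference was -0.04 after quantile normalisation and -0.06 without Ctrl replicate 2.

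The largest rise was seen at Kcnn4 (ENSMUSG00000054342, chr7:24370263-24386690, plus strand, GRCm38), the intermediate-conductance calcium-activated channel. Its scores were 77 and 98 in Ctrl versus 657 and 644 in sKO, a 7.43-fold ratio of means (log2 change 2.89 ± 0.31 SE, limma adjusted p = 2.00e-17, 1.97 on equal totals). Its density rose from 6.84 to 50.8 score per kb of peak. Its 8.2 kb peak over the gene start went from 47 and 53 to 325 and 370, and its 4.6 kb peak at the other end of the gene from 30 and 45 to 332 and 274. The groups were far apart at both peaks.

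Kcnmb3, a beta subunit of the large-conductance channel, had scores of 76 and 52 in Ctrl versus 312 and 366 in sKO (2.41 ± 0.37, limma adjusted p = 1.33e-09, 1.49 on equal totals). Its 6.2 kb peak covered the gene start but had only 0.52% of its length inside the gene (chr3:32471588-32492231, minus strand). Kcnj8, the pore of the ATP-sensitive channel of smooth muscle and muscle vessels, had 85 and 81 in Ctrl versus 366 and 474 in sKO (2.31 ± 0.34, limma adjusted p = 1.96e-10, 1.39 on equal totals). Its 6.8 kb peak covered the start and 74.0% of the gene (chr6:142564837-142571614, minus strand). In both genes each sKO library exceeded each Ctrl library several times over.

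Kcnf1, a silent partner of Kv pores, had 56 and 42 in Ctrl versus 239 and 181 in sKO (2.08 ± 0.43, limma adjusted p = 5.23e-06). Of its peak, 11.1% lay inside the gene. The mean score of Kcnf1 was 49 in Ctrl and 210 in sKO. It thus passed the limit for testing, a mean score above 50, only through its sKO libraries. Its peak may likewise be listed through sKO signal alone. Kcnh7, a pore of the ERG family, had 128 and 168 in Ctrl versus 541 and 669 in sKO (2.03 ± 0.29, limma adjusted p = 1.54e-10). All of the Kcnh7 score came from 3 peaks inside the gene that left its start uncovered. These 5 genes were also the 5 largest changes on equal totals, from 1.10 to 1.97 log2. With scores weighted by the share of the peak in the gene, Kcnmb3 and Kcnf1 had too little score to be tested.

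Kcnip4 and Kcnk9 did not pass the test. Kcnip4, a calcium-binding partner of Kv pores (chr5:48389502-49524907, minus strand), had 252 and 417 in Ctrl versus 356 and 494 in sKO (0.37 ± 0.28, limma adjusted p = 0.195), and the groups overlapped. It has 3 peaks that cover 1.18% of its 1135 kb. One of them, of 5.0 kb, scored 91 and 157 in Ctrl versus 89 and 155 in sKO. Kcnk9, an acid-sensitive leak channel, had 515 and 573 in Ctrl versus 706 and 756 in sKO (0.43 ± 0.27, limma adjusted p = 0.115), and the sKO libraries lay above the Ctrl libraries. On equal totals these were the genes called lower, Kcnip4 at -0.56 (adjusted p = 0.00333) and Kcnk9 at -0.50 (adjusted p = 0.000468).

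Kcnt1, a sodium-activated channel, was among the called genes with the smallest change and had high H4K20me1 in Ctrl cells. Its scores of 5017 and 7212 in Ctrl went to 8810 and 9222 in sKO (0.58 ± 0.29, limma adjusted p = 0.0501). Its 164 kb peak is shared with neighbours and has 33.3% of its length in the gene. The sKO libraries were the higher ones on the deposited scale, and on equal totals the change turned to -0.35.

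The channels described in muscle or myoblasts formed a list of 25 genes. H4K20me1 peaks were listed for 23 of them, all 23 of which were called higher (92.3% of all genes), with a median log2 change of 1.21 (1.11 for all genes). Kcna7 and Kcne4 had no peak. On equal totals 9 of the 23 were called higher (24.1% of all genes) and 0 lower (4.31%). Among the Kir genes, Kcnj2, the classical inward rectifier of muscle, went from 89 and 66 to 216 and 303 (1.73 ± 0.37, limma adjusted p = 1.25e-05, 0.80 on equal totals). Kcnj12, another inward rectifier of muscle, went from 469 and 521 to 1380 and 1522 (1.55 ± 0.27, limma adjusted p = 5.38e-08, 0.62 on equal totals). Kcnj11, the ATP-sensitive pore of the muscle fibre, moved less, from 290 and 351 to 583 and 628 (0.92 ± 0.27, limma adjusted p = 0.00117), and not on equal totals (-0.01). Thus Kcnj8 and Kcnj11, the alternative pores of the ATP-sensitive channel, differed in their log2 change, 2.31 and 0.92, a difference that was not tested.

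Among the Kv pores of this list, Kcnh1, whose current precedes that of Kcnj2 in differentiating myoblasts, went from 4058 and 5786 to 8230 and 9356 (0.86 ± 0.29, limma adjusted p = 0.0042, -0.07 on equal totals). Over its 12 peaks the log2 ratio of means ran from 0.46 to 1.10. Kcnc4, a fast Kv pore, had the smallest change of the list, from 2678 and 3924 to 4747 and 5169 (0.61 ± 0.28, limma adjusted p = 0.0357), and turned to -0.32 on equal totals. In both genes the sKO libraries lay above the Ctrl libraries.

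Of the remaining pores, Kcnk5, an alkaline-activated leak channel, went from 286 and 348 to 999 and 1048 (1.69 ± 0.27, limma adjusted p = 3.85e-09, 0.77 on equal totals). Kcnn3, a small-conductance calcium-activated channel, rose from 1602 and 2172 to 4406 and 4937 (1.32 ± 0.28, limma adjusted p = 8.46e-06), and was not called on equal totals (0.39). Kcnma1, the large-conductance pore, rose from 4798 and 6356 to 11053 and 11798 (1.05 ± 0.29, limma adjusted p = 0.000573), and was not called on equal totals (0.12). Its 26 peaks shared the direction, with 25 of them higher in both sKO libraries and log2 ratios of means from 0.32 to 2.213. Among the auxiliary subunits, Kcne3 had a log2 change of 1.53, Kcnab1 of 1.21, Kcnip3 of 0.83 and Kcnab2 of 0.72. On equal totals Kcne3 was called higher (0.60), and Kcnab1 (0.28), Kcnip3 (-0.10) and Kcnab2 (-0.21) were not called.

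**Figure D2:**
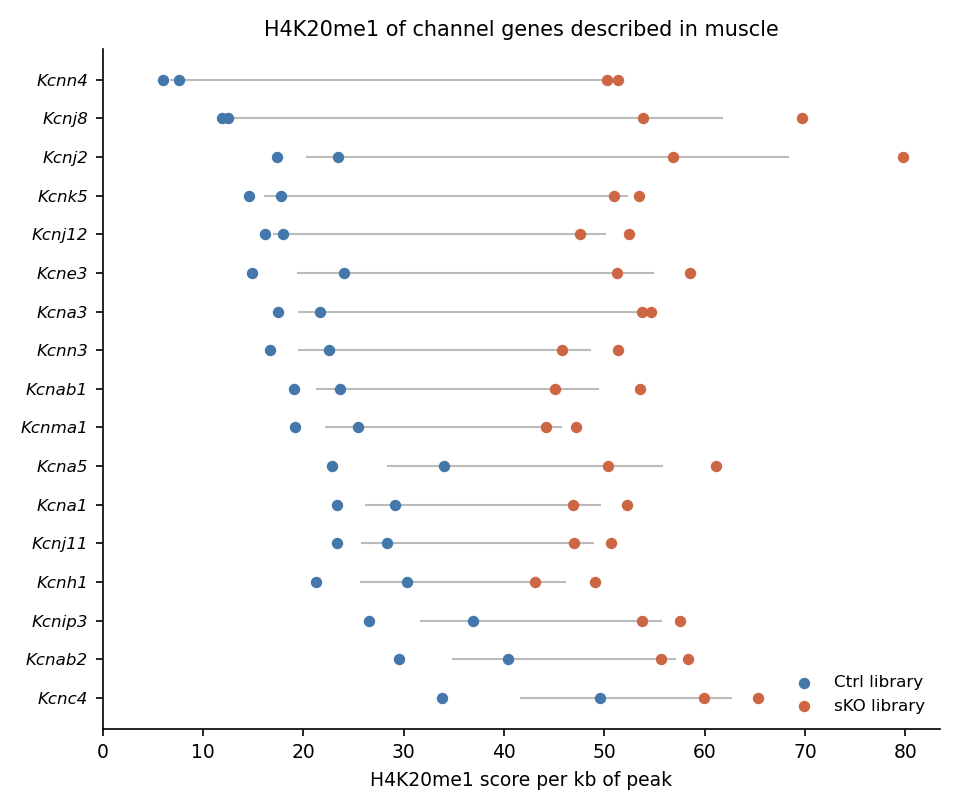
H4K20me1 density (score per kb of peak, horizontal axis) in each Ctrl and sKO library for 17 of the 23 muscle-described potassium channel genes, ordered by their log2 change, with a grey line joining the genotype means. The sKO libraries lie above the Ctrl libraries in all 17 genes, and Kcnn4, with 6.84 in Ctrl and 50.8 in sKO, has the widest gap as a ratio.

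Differences in H4K20me1 density among the potassium channel genes were smaller in sKO than in Ctrl cells. In Ctrl replicate 1 the score per kb of peak had a median of 20.3 and ran from 6.02 to 37.4, and in Ctrl replicate 2 the median was 27.9 and the range 6.77 to 54.5. In sKO replicates 1 and 2 the medians were 47.2 and 52.5, with ranges of 26.6 to 65.9 and 29.2 to 79.7. The SD of the log2 density was 0.44 and 0.56 in Ctrl versus 0.21 and 0.22 in sKO, and the groups did not overlap. Over all genes it was 0.49 and 0.51 in Ctrl versus 0.22 and 0.22 in sKO, so this was shared with the genome. Multiplying a library by a constant leaves this SD as it is. The libraries of an antibody share the same peak set, so a peak can be listed through its sKO signal alone. The cause of the narrower range was not tested.

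**Figure D3:**
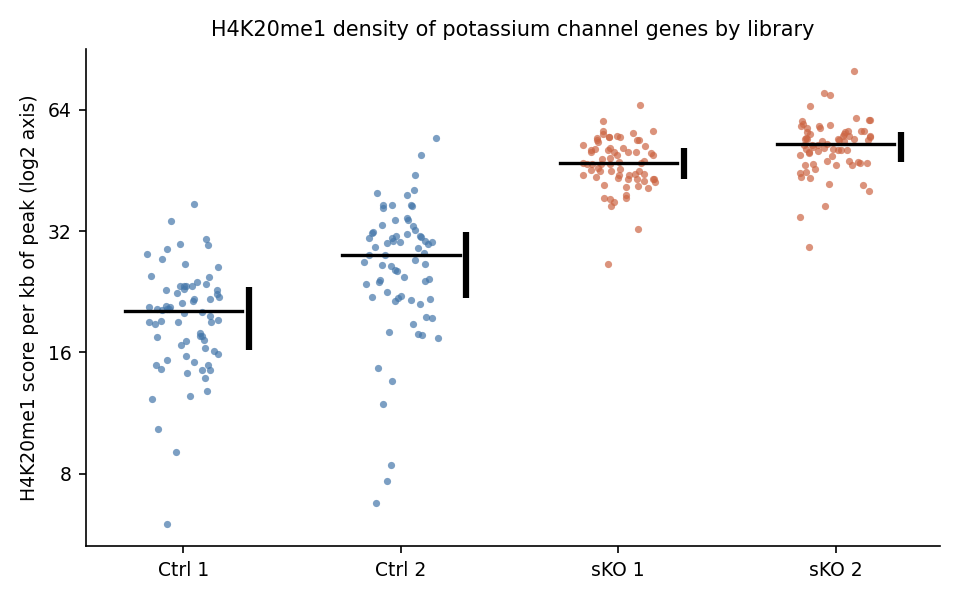
H4K20me1 density (score per kb of peak, log axis) of 70 potassium channel genes in each library, with 1 point per gene, a black line at the median and a thick bar over the quartiles. The range narrows from 6.02 to 37.4 in Ctrl replicate 1 to 26.6 to 65.9 in sKO replicate 1.

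Among the listed genes, those with the lowest Ctrl density changed most. To avoid using a library on both sides, members were ordered by their density in Ctrl replicate 1 and the change was taken from Ctrl replicate 2. The 24 members of lowest density (6.02 to 17.5 score per kb of peak) had median log2 changes of 1.34 and 1.36 in sKO replicates 1 and 2. The 23 of highest density (22.4 to 37.4) had 0.52 and 0.64. Spearman's rho across the 70 genes was -0.73, and -0.74 across all genes, where genes share libraries and are not replicates. The libraries share the same peaks, so a gene of low Ctrl density can be listed through its sKO signal. The sKO densities also varied little, so that a low Ctrl density goes with a large change. Taking level and change from different Ctrl replicates does not remove this. Kcnip4 and Kcnk9 departed from the order by Ctrl density, since from 24.96 and 24.95 score per kb of peak in Ctrl they reached only 31.7 and 33.5 in sKO.

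Pol II S2P did not pass the test at any of the 13 potassium channel genes with a mean score above 50, and at none of the 8531 genes tested (0.0% in each direction). At an unadjusted p under 0.05 the members again gave 0 calls, against 1.11% of all genes higher and 0.0586% lower. The median log2 change was 0.07 for the members and 0.09 for all genes. In none of the 13 genes did the sKO libraries lie wholly above or wholly below the Ctrl libraries (9.41% and 4.52% of all genes). On equal totals there were 0 calls among the members (1.27% of all genes higher, 0.856% lower), and at an unadjusted p under 0.05 the members gave 1 call in the lower direction (8.35% of all genes) and 0 in the higher (5.94%). A missed threshold with 2 libraries does not show that the genes stayed the same.

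The highest score belonged to Kcnq1, the voltage-gated pore of the slow cardiac current, with 1151 and 1685 in Ctrl versus 2092 and 1455 in sKO (0.32 ± 0.43). Of the 79 Pol II S2P peaks of the members, 5 were lower in both sKO libraries (7.37% of all peaks) and 11 higher in both (13.7% of all peaks). Per kb of gene, Kcnrg had the highest Ctrl level, 38.5, then Kcnk7 with 34.8.

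Kcnrg, a soluble protein that hinders assembly of Kv pores, scored 171 and 243 in Ctrl versus 325 and 224 in sKO (0.40 ± 0.41). It lies inside the non-coding gene Dleu2, and reads without strand cannot separate the pair. Kcnk7, which makes no leak current alone, had 95 and 96 against 101 and 88 (-0.02), in a single peak just past a 6.0 kb peak listed with Map3k11 that covers the start window of Kcnk7. The groups overlapped in both genes.

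Kcnab1, a cytosolic partner of Shaker channels, had 258 and 426 in Ctrl versus 538 and 359 in sKO (0.41 ± 0.42). Of its 7 Pol II S2P peaks, 6 lay between 97.0 and 99.9% of the way along its 429.0 kb. The 3 peaks of Kcnmb3 lay between 92.3 and 97.6% of the way along that gene and scored 17 and 68 in Ctrl versus 68 and 56 in sKO. Its change was the largest of the 13 (0.83 ± 0.55, unadjusted p = 0.133, limma adjusted p = 1) and was -0.14 without Ctrl replicate 1.

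The muscle inward rectifier Kcnj12 had 497 and 603 in Ctrl versus 573 and 467 in sKO (-0.08). Kcnn3 had 266 and 347 against 408 and 242 (0.05), and Kcnk5 had 142 and 181 against 179 and 159 (0.07). The libraries of the genotypes overlapped in all 3. The other tested members, Kcnip1, Kcnj14, Kcnab2 and Kcnh5, had log2 changes from -0.10 to 0.32. The 7 members under the limit of 50 were not tested, and only in Kcne1 and Kcnh7 did the genotypes not overlap. Kcne1, a partner of Kcnq1, scored 26 and 40 in Ctrl versus 50 and 51 in sKO, and Kcnh7 scored 36 and 35 against 22 and 26. The others overlapped, among them Kcnma1 with 32 and 82 against 13 and 33. The share of all genes under the limit without overlap was not computed. No Pol II S2P peak was listed with Kcnn4, Kcnj8, Kcnj2 or Kcnj11.

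**Figure D4:**
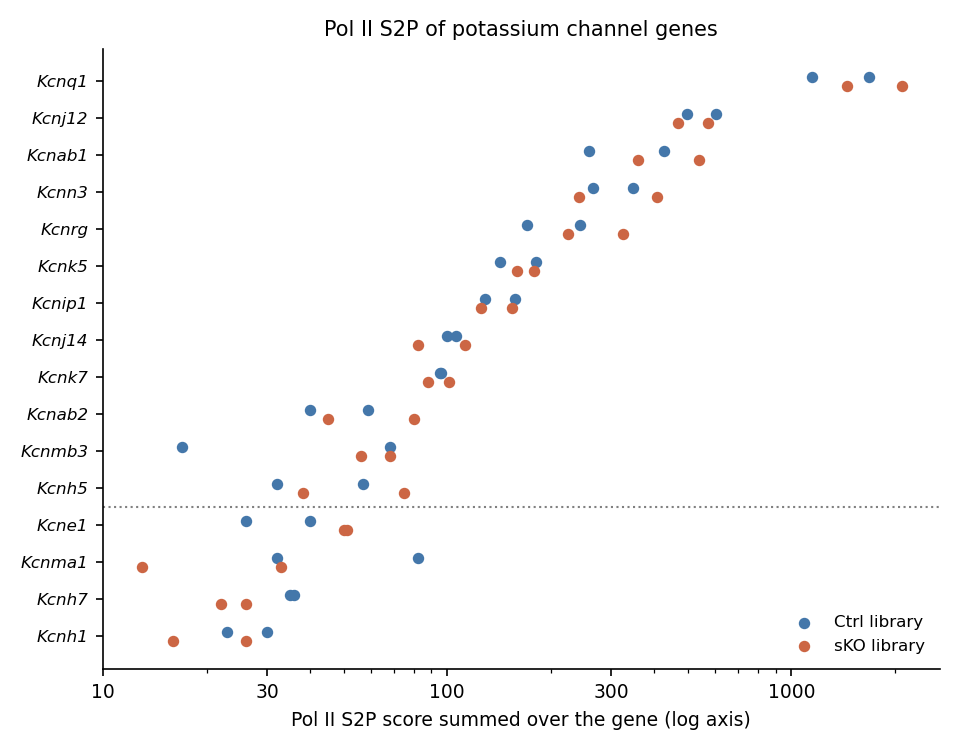
Pol II S2P score (log axis) of 16 of the 20 listed potassium channel genes in each Ctrl and sKO library, with a dotted line between 12 tested genes and 4 with a mean of 50 or less. The libraries of both genotypes overlap in all 12 tested genes, from Kcnq1 (1151 to 2092) downwards.

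Most of the Pol II S2P score of Kcnq1 lay where an antisense gene overlaps it. Kcnq1ot1, a long non-coding RNA of the imprinted Kcnq1 region, is annotated on the minus strand at chr7:143203458-143296549, inside the 320.7 kb of Kcnq1 on the plus strand, and had no peak listed under its own name. Of the 26 Pol II S2P peaks listed with Kcnq1, 22 lay on Kcnq1ot1. They held 94.4% and 92.2% of the score in Ctrl versus 92.6% and 94.9% in sKO. One of them covered the start of Kcnq1ot1 (112 and 78 in Ctrl, 92 and 83 in sKO), and the other 21 lay 58.0 to 84.3 kb past that start. None of the 26 covered an exon of Kcnq1. CUT&RUN reads carry no strand, so Pol II S2P on Kcnq1 and on Kcnq1ot1 cannot be told apart.

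H4K20me1 at this gene went from 9903 and 13873 in Ctrl to 17138 and 18516 in sKO (0.60 ± 0.30, limma adjusted p = 0.0479, -0.33 on equal totals). Of its 7 peaks, 3 touched Kcnq1ot1. The longest of these, of 148.4 kb, reached only the far end of Kcnq1ot1 and went from 4104 and 5705 to 7698 and 8302. The 46.8 kb peak over the Kcnq1ot1 start (chr7:143250200-143296999) scored 1561 and 2166 in Ctrl versus 1894 and 2213 in sKO, and the groups overlapped. The 3.4 kb peak next to it scored 68 and 132 in Ctrl versus 100 and 86 in sKO. In the other 5 peaks both sKO libraries were higher. Of the 26 Pol II S2P peaks, 9 (34.6%) lay under an H4K20me1 peak, against 42 of 79 (53.2%) for all members and 71.4% for all coding genes.

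**Figure D5:**
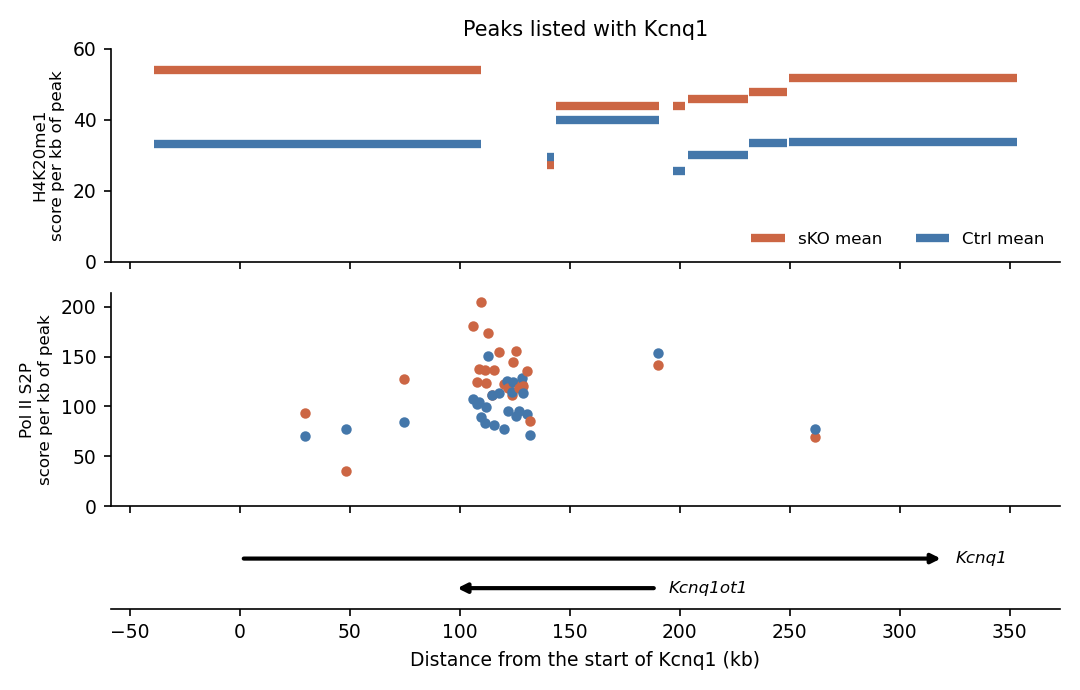
Peaks listed with Kcnq1 by distance from the Kcnq1 start (kb, horizontal axis), with score per kb of peak on the vertical axis, for H4K20me1 and Pol II S2P in both genotypes, and arrows for Kcnq1 and the antisense Kcnq1ot1. Pol II S2P peaks crowd between 105.9 and 132.1 kb, a stretch mostly without an H4K20me1 peak.

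Across the 18 members listed for both antibodies, Spearman's rho between H4K20me1 and Pol II S2P per kb of gene was 0.46 in Ctrl and 0.61 in sKO, and 0.26 and 0.29 across 7012 coding genes. Both values share the gene length as divisor, and with plain sums rho was 0.35 and 0.19. The 18 had a median H4K20me1 log2 change of 1.24, and the 52 members not listed for Pol II S2P of 0.94, without a test. In other channel families the median H4K20me1 log2 change was 0.86 for voltage-gated calcium channels (23 of 23 higher), 1.06 for sodium channels (10 of 10), 1.45 for chloride channels (8 of 8) and 1.24 for Trp channels (15 of 15), where 92.3% of all genes were called higher. On equal totals 1 calcium, 2 sodium, 4 chloride and 4 Trp channel genes were called higher (24.1% of all genes). Of 28 genes for potassium transport, channel partners and related cation channels, 19 were tested and 17 called higher (median 1.13), and on equal totals 2 were higher and 2 lower. The pacemaker channel Hcn2 was not called (712 and 934 in Ctrl, then 1098 and 1082 in sKO). For Pol II S2P 12 of the 28 were listed, 8 tested and 0 called, with 0.0% called over all genes.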

How the data were processed

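Processed CUT&RUN tables for 8 libraries (2 per genotype and antibody, grouped by the labels) were analysed, and the 2 IgG libraries were not analysed here. Per the submitters' processing notes the authors used SICER 0.0.41, MACS2 2.1.1, Picard 2.21.7, STAR 2.7.3a, Trimmomatic 0.39 and FastQC 0.11.8 with builds mm10 (GRCm38) and BDGP6, and which peak caller served which antibody is not given in the sources used here. The deposited score is the authors' whole-number, spike-in normalised coverage of a peak in 1 peak set per antibody shared by its 4 libraries, and is not divided by length. The spike-in DNA came, per the labels, from S2 cells. The deposited fraction of a peak inside its gene is rounded, so shares were recomputed from the deposited coordinates. No value given here uses the deposited distance from peak to gene start.

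Scores were summed by gene identifier. A peak is listed with at most 1 gene, so a score can lie outside its gene. Because the values are normalised, no count test was used: log2(score + 1) of all autosomal genes with a mean score above 50 was fitted by limma 3.58.1 (R 4.3.3) with trended empirical Bayes moderation, and a gene was called at a p below 0.1 after Benjamini-Hochberg adjustment with a log2 change beyond 0.5. Peak and gene coordinates are the deposited ones, exons and transcripts came from GENCODE and promoter windows from RefSeq on the same build, and other steps used Python 3.11.15, pandas 2.3.3, numpy 2.4.6, scipy 1.17.1 and pysam 0.24.0. Scripts were tested on simulated data. The paper's reporting summary lists reads per library, more in each sKO than in each Ctrl library of the same antibody. Depth was not used here, so no counting intervals are given. The limma SE and p-values rest on a variance moderated across all genes, not only on the spread between a gene's own 2 libraries. For H4K20me1, Kcna3 (424 and 524 in Ctrl, 1322 and 1302 in sKO) and Kcnb2 (335 and 626, then 1078 and 1301) both had an SE of 0.265.

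The members and all lists were chosen with earlier results of these data known. Genes were named by rule: the 3 highest and 3 lowest levels per kb of gene and log2 changes per antibody, the muscle list, up to 5 calls per direction on equal totals, and tested members without overlap for Pol II S2P. Some genes that the rule names are not reported here. Kcnq1, Kcnq1ot1, Kcne1 and Hcn2 fall outside it and were named after their values were seen. Libraries were not treated as paired by replicate number. The correlation across genes of the deviations of same-numbered libraries was 0.0407 for H4K20me1 (13750 genes) and -0.0428 for Pol II S2P (8531 genes). Such a correlation cannot see an offset shared by all genes, so it does not settle whether the libraries were paired. Replicate 1 had the lower total in both genotypes for H4K20me1, and only in Ctrl for Pol II S2P. Alternatives were equal totals, quantile normalisation, a pseudocount of 10, no filter, scores weighted by the share of the peak in the gene, a replicate block and leaving out each library.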

Additional observations from a re-analysis of the deposited data

How the results depend on the processing

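The scale between libraries limits these results most, since it could not be checked, together with 2 libraries per group. For H4K20me1 the 68 members called higher (92.3% of all genes) became 18 on equal totals (24.1%) and 5 after quantile normalisation (10.3%). The 0 called lower (0.0% of all genes) became 2 (4.31%) and 4 (11.2%). Leaving out 1 library gave 26 (without sKO replicate 2) to 70 (without Ctrl replicate 2), with 32 without sKO replicate 1. Weighting by the share of the peak in the gene gave 66 (median 0.98 for the members, 1.10 for all genes). Kcnmb3 and Kcnf1 then fell under the score limit and were not tested. A pseudocount of 10 and no filter gave 68 each. The change relative to all genes, -0.12, was -0.042 after quantile normalisation and -0.15 to -0.064 leaving out 1 library (-0.064 without Ctrl replicate 2). For Pol II S2P it was 0.06, and -0.11 with no filter, when 20 members entered, and 0.02 to 0.10 leaving out 1 library. No alternative gave a Pol II S2P call among the members. The causes were not tested, and equal totals and quantile normalisation remove a shared rise by construction.

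With the replicate number as a block, 68 members were again called higher by H4K20me1 and 0 by Pol II S2P, and the pairing changed no call of a named gene. The rank correlation between the antibodies in Ctrl (0.46) was 0.35 with plain sums, 0.28 with weighted scores and 0.38 with replicate 2 of each antibody. In sKO (0.61) it was 0.19, 0.38 and 0.55, and also 0.55 with H4K20me1 replicate 1 against Pol II S2P replicate 2.

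The sign of the H4K20me1 log2 change turned on equal totals for Kcna1 (-0.0058), Kcnab2 (-0.21), Kcnc4 (-0.32), Kcnh1 (-0.073), Kcnip3 (-0.10), Kcnip4 (-0.56), Kcnj11 (-0.0063), Kcnk9 (-0.50) and Kcnt1 (-0.35). After quantile normalisation it turned for Kcna1 (-0.17), Kcnab2 (-0.16), Kcnc4 (-0.26), Kcnip3 (-0.022), Kcnip4 (-0.90), Kcnj11 (-0.33), Kcnj14 (-0.015), Kcnk9 (-0.77) and Kcnt1 (-0.27). The uncalled Pol II S2P changes turned for Kcnk5 (-0.066) and Kcnn3 (-0.091) on equal totals, and for Kcnk5 (-0.011) and Kcnn3 (-0.050) after quantile normalisation. Leaving out 1 library turned the sign of the Pol II S2P change, which ranged as follows, for Kcnab2 (-0.11 to 0.71), Kcnh5 (-0.17 to 0.80), Kcnip1 (-0.19 to 0.11), Kcnj12 (-0.23 to 0.066), Kcnj14 (-0.32 to 0.13), Kcnk5 (-0.10 to 0.25), Kcnk7 (-0.12 to 0.080), Kcnmb3 (-0.14 to 1.80) and Kcnn3 (-0.33 to 0.42).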
